A study of Mus musculus with 8 samples.

Results

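The genes described here are the 20 cytosolic aminoacyl-tRNA synthetase genes together with 16 genes of amino acid synthesis, amino acid transport and stress that are known targets or partners of the transcription factor ATF4, and Atf4 itself is counted among them. They were chosen by name and matched by gene identifier, giving 36 of the 53801 genes in the deposited table. Slc7a5 was taken by its identifier because its row carried another symbol (Gnaz), and of 2 rows labelled Aars the one whose identifier belongs to Aars was used. Aminoacyl-tRNA synthetases join each amino acid to its tRNA and so supply the ribosome. When amino acids run short or the endoplasmic reticulum is stressed, kinases phosphorylate the translation initiation factor eIF2α, most translation slows, and the Atf4 mRNA is translated more. ATF4 then switches on genes that take up amino acids, make them and charge tRNAs, and in macrophage-lineage cells the same genes are also engaged when the cells are activated and make much new protein.

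The study examined how microglia, the resident macrophages of the brain, respond to IL-33, an alarmin cytokine of the IL-1 family. Mice at postnatal day 30 received an injection of IL-33 or of vehicle into 1 side of the cerebral ventricles, and tissue was taken 4 h later. Cortical microglia were enriched on a 22% Percoll gradient, sorted by flow cytometry and sequenced in bulk from amplified RNA. Each group held 4 mice, numbered 1 to 4 (IL-33) and 5 to 8 (vehicle), with 2 females (1 and 2; 5 and 6) and 2 males (3 and 4; 7 and 8) in each. Apart from the injection, the labels describe both groups alike. The sources used here do not give the strain, the IL-33 dose or the surface markers of the sort.

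Each library held 6989640 to 9323677 reads assigned to genes, and values below are normalized counts, in order of mouse number unless said otherwise. The summed level of 8 microglial markers was 149761 to 173219 in the vehicle mice and 88099 to 98378 in the IL-33 mice, with 5 of the 8 lower after IL-33 and none higher. Markers of other cells were far lower: 1574 to 1855 (vehicle) and 2418 to 2678 (IL-33) for 8 astrocyte genes, led by Slc1a3, 476 to 563 and 581 to 762 for oligodendrocyte genes, and 165 to 274 and 156 to 231 for neuronal genes. Endothelial and mural genes summed to 275 to 455 and 207 to 281, border macrophage genes (Cd209f at 0) to 638 to 717 and 230.2 to 282, and blood myeloid genes (S100a8, S100a9, Ly6g, Mpo and Retnlg at 0) to 61.1 to 91.7 and 16.0 to 27.8. Lymphocyte and mast cell genes, with Cd3e, Cd3d, Nkg7, Cpa3 and Mcpt4 at 0, summed to 0.841 to 3.66 and 43.7 to 79.1. Astrocyte, oligodendrocyte and lymphocyte sums were thus higher after IL-33 and border macrophage and blood myeloid sums lower. Their part in the results below was not tested. These sums rested mostly on few genes, and other genes of a list could go the other way. Means went from 1330 (vehicle) to 2071 (IL-33) for Slc1a3, but from 29.8 to 10.1 for Aqp4. Mrc1, the main border macrophage gene, went from 624 to 224, but Ms4a7 from 2.13 to 11.9. Ccr2 led the blood myeloid sum, at 63.4 and 17.2. Only 1 gene of the lymphocyte and mast cell list passed the filter for testing. Vehicle mouse 6 stood apart from the other vehicle mice in several of the genes described, so values without it are given beside the results that rest on it. Its library was the smallest, though close in size to that of IL-33 mouse 4. In bulk RNA, fewer cells of a type and less RNA per cell cannot be told apart.

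Most of these genes rose after IL-33. Of the 34 genes that passed the filter on low values, 31 (91.2%) were called higher and none lower, at an adjusted p under 0.05 from limma with Benjamini-Hochberg adjustment over all genes. Over all 15110 genes tested, 57.7% were called, 29.2% as higher and 28.5% as lower, so a call by itself was common in these data. The median log2 fold change of the 34 genes was 1.05, against 0.015 over all genes tested. No gene of the group was lower at an unadjusted p under 0.05 either, and edgeR and DESeq2 on the recovered reads also called 31 higher and none lower. Sars, Psat1 and Phgdh were tested and not called, and Chac1 and Trib3 were too low to be tested in this way. In 30 of the 34 (88.2%) every IL-33 mouse exceeded every vehicle mouse, which held for 26.7% of all genes, while none showed the opposite order, which 25.6% of all genes did. The called genes with a rise of at least 1 log2 unit numbered 18, 52.9% of those tested, against 11.2% of all genes.

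The authors' deposited table of 7029 changed genes, whose highest adjusted p is 0.00996, lists 29 of the 36 genes, all as higher. It does not list Nars, Sars, Wars, Psat1, Phgdh, Chac1 or Trib3. The limma p-values set each difference against the variation between mice left after the terms for treatment and sex, with variance estimates partly shared across genes.

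**Figure D1:**
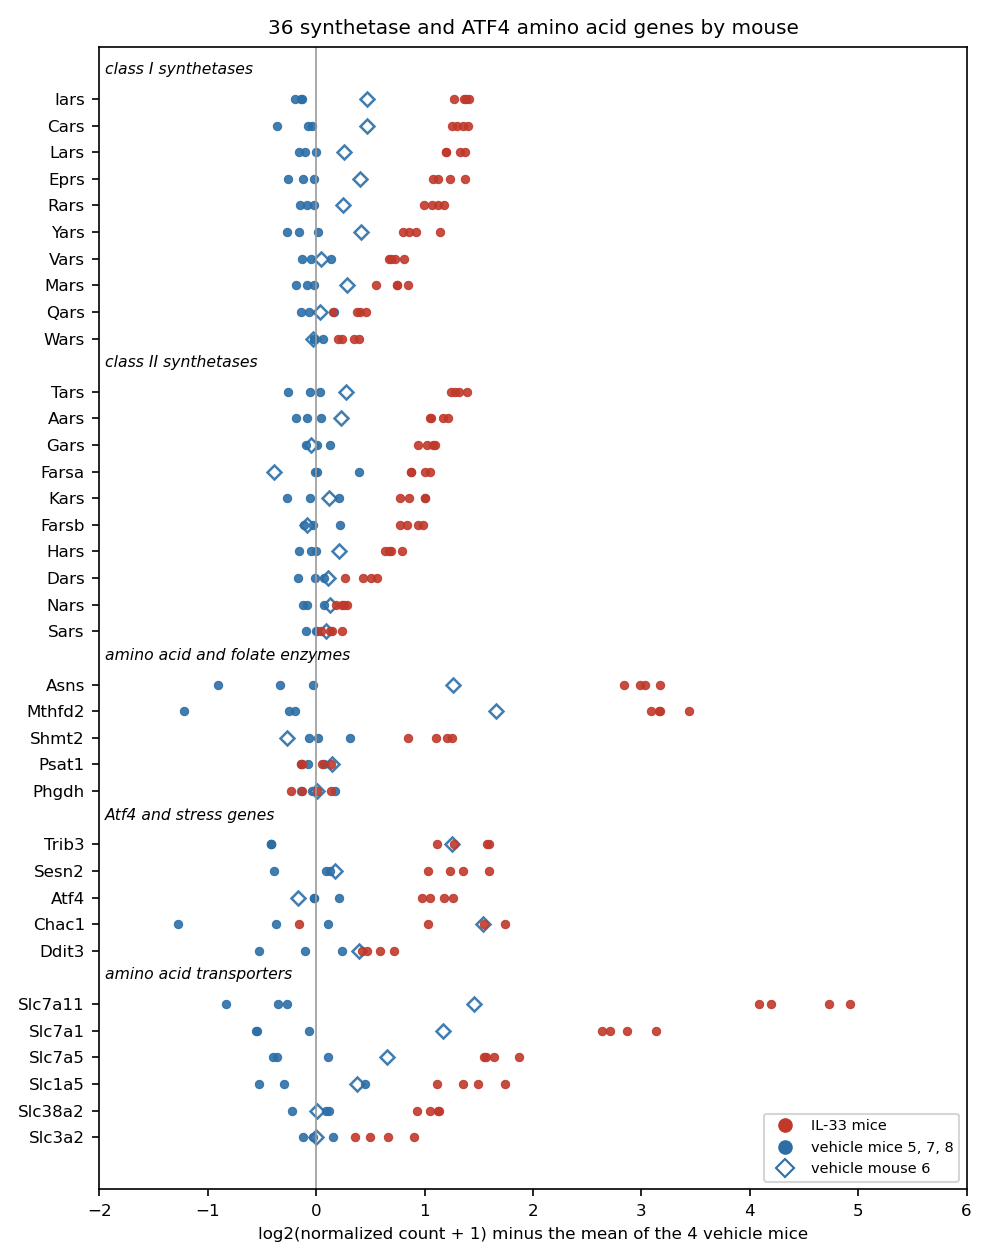
The log2 of the normalized count plus 1 of each of the 36 genes in each of the 8 mice, on the x axis, relative to the mean of the 4 vehicle mice (line at 0); red points are IL-33 mice, blue points vehicle mice 5, 7 and 8, and open diamonds vehicle mouse 6. Red points lie above blue points and diamond for 30 genes, and above the blue points alone for 32. The diamond lies between the blue and the red points for 19 genes, Asns, Mthfd2, Slc7a11, Slc7a1 and Slc7a5 among them.

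The promoters of several of these genes carry the letters that ATF4 and its C/EBP partners are known to bind together. This C/EBP-ATF response element (CARE), searched as TGATGNAA on both strands from 250 bases before to 50 after the RefSeq start (GRCm38.p6), was found in 9 of the 27 genes with a promoter entry (33.3%). It was found in 4.51% of all 27025 genes with such an entry, and in 3.97% of the 32851 promoters of that length, since a gene can have several. The genes other than the synthetases were chosen as known ATF4 targets or partners, so the higher share is not independent of that choice. The windows below are shown because they hold the matches before the start in Slc7a11, Asns, Gars, Tars and Chac1, with the match in capitals. TGATGNAA is a match on the gene's strand and TTNCATCA on the other strand.
Slc7a11: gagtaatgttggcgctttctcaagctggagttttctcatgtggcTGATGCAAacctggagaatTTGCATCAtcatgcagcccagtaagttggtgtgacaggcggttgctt
Asns: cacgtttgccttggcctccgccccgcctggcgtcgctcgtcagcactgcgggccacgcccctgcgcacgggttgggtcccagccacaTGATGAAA
Gars: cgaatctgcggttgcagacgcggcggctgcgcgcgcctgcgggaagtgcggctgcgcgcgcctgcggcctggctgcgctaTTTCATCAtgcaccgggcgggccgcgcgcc
Tars: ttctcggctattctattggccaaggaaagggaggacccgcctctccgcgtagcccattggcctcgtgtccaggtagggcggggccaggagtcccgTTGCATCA
Chac1: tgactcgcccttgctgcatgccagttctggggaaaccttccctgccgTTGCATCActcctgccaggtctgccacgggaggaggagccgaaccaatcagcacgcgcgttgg

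Each window is read on the gene's strand, and the intervals are chr3:50443614-50443723 (minus strand) for Slc7a11, chr6:7693225-7693319 (minus) for Asns, chr6:55037891-55038000 (plus) for Gars, chr15:11399666-11399768 (minus) for Tars and chr2:119351002-119351111 (plus) for Chac1. Slc7a11 held 2 matches, on opposite strands, starting 66 and 47 bases before the RefSeq start, and the Asns, Gars and Tars matches started 23, 30 and 15 bases before it. The Chac1 match began 193 bases before the start. In the GENCODE M21 annotation, used for gene lengths, the Asns start lies 45 bases upstream of the RefSeq start. The Asns match thus lies after the GENCODE start. Aars had matches 112 bases before and 10 bases after its start, and Iars, Trib3 and Yars had a match only after the start. Of the 9 genes with a match, 7 were tested and all 7 were called higher, with a median log2 fold change of 1.31, while 15 of the 18 genes with a promoter entry and no match were called higher, with a median of 0.90. The difference between these sets was not tested, and a match in the letters does not show binding. The E-box CACGTG, bound by MYC and its relatives, was found in 4 of the 27 genes (14.8%; all genes 8.09%, all promoters 7.15%) and the antioxidant response element TGACNNNGC, bound by NRF2, in 8 (29.6%; all genes 13.99%, all promoters 12.39%). No promoter entry was used for Cars, Hars, Lars, Nars, Rars, Vars, Wars, Slc7a5 and Slc1a5.

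**Figure D2:**
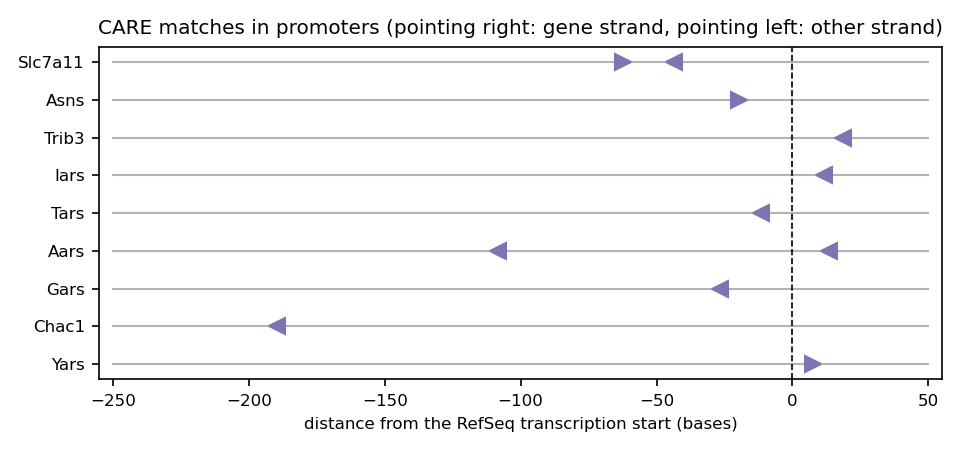
Matches to the CARE letters TGATGNAA in the 9 promoters that hold one, by distance from the RefSeq transcription start in bases (dashed line, start); triangles pointing right are on the gene's strand and those pointing left on the other. Slc7a11 and Aars hold 2 matches and the other 7 genes hold 1.

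Atf4 mRNA itself rose. The normalized counts of Atf4 were 1859, 1753, 1531 and 1605 in the IL-33 mice and 895, 688, 766 and 766 in the vehicle mice. All 4 IL-33 mice stood above all 4 vehicle mice, and the log2 fold change was 1.12 ± 0.09 (SE) with an adjusted p of 9.24e-09. The mRNA does not measure ATF4 protein, which is set largely at translation. Sesn2, a stress-induced leucine sensor that restrains mTORC1, rose by 1.30 ± 0.17 (SE) on the log2 scale, from 77.4, 81.8, 54.9 and 79.1 in the vehicle mice to 220.1, 149, 187 and 171 in the IL-33 mice (adjusted p 5.47e-06). Its groups did not overlap. Ddit3, which encodes the stress transcription factor CHOP, had 213, 231, 253 and 206 normalized counts in the IL-33 mice and 182, 203, 143 and 106 in the vehicle mice. The lowest IL-33 mouse (206) was just above the highest vehicle mouse (203), and the rise was the smallest of the 3 tested stress genes at 0.55 ± 0.16 (SE) (adjusted p 0.0072). In the females alone it was 0.21 with an adjusted p of 0.401.

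Chac1, a glutathione-degrading enzyme, and Trib3, a pseudokinase that feeds back on ATF4, are classical markers of a strong ATF4 response, and both stayed near the detection limit. Chac1 had 15, 9, 14 and 3 reads in the IL-33 mice and 5, 12, 3 and 1 in the vehicle mice. Mouse 6 held 12 of the 21 vehicle reads, and the groups overlapped. Pooled, the IL-33 mice had 41 Chac1 reads of 31993955 and the vehicle mice 21 of 32806198, a ratio of shares of 2.0 with an exact 95% interval of 1.16 to 3.57 that covers counting error only. A two-sided exact permutation test over the mice gave p = 0.229 (n = 4 and 4), where the smallest p possible is 0.0286. Without mouse 6 the vehicle mice had 9 Chac1 reads of 25816558, the ratio was 3.68 (1.76 to 8.60) and the exact permutation test gave p = 0.114, where the smallest p possible is 0.0571. Trib3 had 3, 3, 2 and 2 reads in the IL-33 mice, and in the vehicle group mouse 6 held 2 reads and the others 0. The pooled ratio, 10 reads against 2, was 5.13 (1.09 to 48.1), and the exact permutation test gave p = 0.0571. The other 3 vehicle mice had 0 Trib3 reads. With their pooled count set at 3 reads, the share in the IL-33 mice was 2.69-fold higher. The exact 95% lower bound of the ratio without mouse 6 was 1.81, for counting error only. Without mouse 6 the exact permutation test gave p = 0.0571, which is the smallest p possible there.

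Of the 20 cytosolic synthetase genes, 19 rose, by 0.24 to 1.35 log2 units, and the median of all 20 was 0.92. Every IL-33 mouse exceeded every vehicle mouse in 18 of the 20. The summed normalized counts of the 20 were 18816, 17592, 17176 and 17669 in the IL-33 mice and 9074, 11051, 8684 and 9311 in the vehicle mice. They made up 0.215% to 0.225% of the reads in the IL-33 mice and 0.110% to 0.145% in the vehicle mice, with mouse 6 the highest of the vehicle mice. Only Sars was not called, and no synthetase fell.

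**Figure D3:**
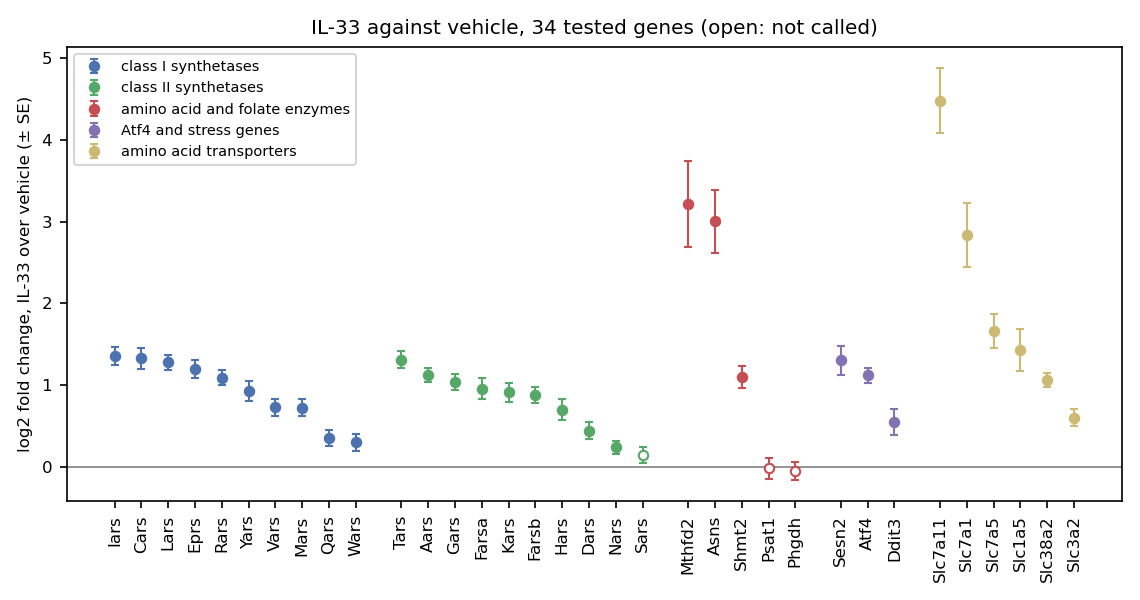
The log2 fold change, IL-33 over vehicle, of the 34 tested genes (y axis, bars ± SE), grouped and coloured by role; open points were not called. The synthetases step down from 1.35 (Iars) to 0.14 (Sars), and Slc7a11, Mthfd2, Asns and Slc7a1 lie above all others, with the widest errors.

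All 10 class I synthetases rose, with a median log2 fold change of 1.01. Iars, which charges isoleucine, changed most. The normalized counts of Iars were 2657, 2568, 2413 and 2609 in the IL-33 mice and 908, 1384, 872 and 914 in the vehicle mice, a log2 fold change of 1.35 ± 0.11 (SE) with an adjusted p of 3.67e-08. Vehicle mice 5, 7 and 8 lay within 872 to 914, and mouse 6 stood above them but well below the IL-33 mice. Cars, for cysteine, had 675, 651, 699 and 629 against 257, 366, 205 and 250.2 and rose by 1.33 ± 0.13 (SE) (adjusted p 1.12e-07). Lars, for leucine, which also senses leucine for mTORC1, had 1223, 1081, 1183 and 1083 against 469.5, 564, 438 and 421 and rose by 1.28 ± 0.09 (SE) (adjusted p 2.96e-09). Neither gene's groups overlapped. Eprs, a single protein that charges glutamate and proline, had 2856, 2398, 2589.6 and 2325 against 1010.4, 1457, 923 and 1086, a log2 fold change of 1.2. Rars (arginine) went from 409.7 ± 52.5 (mean ± SD, n = 4) to 869 ± 47.4, a log2 fold change of 1.09, and Yars (tyrosine) from 393 ± 86.6 to 738 ± 79.1, 0.93. Vars (valine) and Mars (methionine, including the initiator tRNA) rose by 0.72 and 0.72, from 258 ± 20.7 to 426 ± 19.0 and from 498 ± 73.2 to 819 ± 69.5. At the low end, Qars (glutamine) had 428, 409.8, 404 and 346 against 348, 318, 296 and 282. Its groups overlapped, since IL-33 mouse 4 (346) was below vehicle mouse 5 (348), and the log2 fold change was 0.35 ± 0.10 (SE) (adjusted p 0.00666; 0.104 in females alone). Wars (tryptophan), an interferon-γ-induced gene in human cells, had 336, 301, 292 and 325 against 267, 249, 252 and 251 and rose by 0.30 ± 0.11 (SE) (adjusted p 0.0241). Its groups did not overlap, but leaving out IL-33 mouse 1, IL-33 mouse 4 or vehicle mouse 8 ended the call (adjusted p 0.0752, 0.0772 and 0.05), as did fitting either sex alone (0.17 in females, 0.11 in males).

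Of the 10 class II synthetases 9 rose, with a median of 0.90. Tars, for threonine, led. The normalized counts of Tars were 844, 801, 822 and 886 in the IL-33 mice and 324, 409, 282 and 346 in the vehicle mice, and it rose by 1.31 ± 0.11 (SE) on the log2 scale (adjusted p 1.24e-08). Aars, for alanine, had 1527, 1365, 1375 and 1484 against 679.8, 769, 578 and 619.5 and rose by 1.13 ± 0.09 (SE) (adjusted p 6.51e-09). The groups did not overlap in either gene, and Tars and Aars both carry CARE letters near the start. Gars, for glycine, whose match is shown above, had 594, 586, 534 and 567 against 279, 269, 304 and 261 and rose by 1.03 ± 0.10 (SE) (adjusted p 7.94e-08). Gars and Kars, unlike the rest, each supply the cytosol and the mitochondria from a single gene. Kars (lysine) went from 245 ± 35.1 to 459 ± 36.3, a log2 fold change of 0.91. The phenylalanine enzyme is built of 2 subunits. Farsa, the α subunit, rose by 0.95 ± 0.13 (SE) and Farsb, the β subunit, by 0.88 ± 0.10 (SE). In Farsa mouse 6 was the lowest vehicle mouse (179, against 233 to 308). Hars (histidine) rose by 0.70 ± 0.13 (SE), from 125 ± 13.9 to 202 ± 9.76, and Dars (aspartate) by 0.44 ± 0.10 (SE), from 360.4 ± 30.3 to 489.6 ± 41.8. Nars (asparagine), the most abundant synthetase per kilobase in the vehicle mice, had 1927, 1868, 1792 and 1883 against 1456, 1731, 1489 and 1665, a small rise of 0.24 ± 0.08 (SE) (adjusted p 0.0145). The groups did not overlap, but leaving out vehicle mouse 5 or 7 ended the call (adjusted p 0.0656 and 0.0522), as did fitting either sex alone (0.114 in females, 0.0555 in males). Sars, for serine, had 398, 367, 347 and 373 against 315, 359, 336 and 337. Its groups overlapped, and its log2 fold change of 0.14 ± 0.10 (SE) was not called (adjusted p 0.244).

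Part of the synthetases sit in the multi-tRNA synthetase complex, held together by 3 scaffold proteins. The 8 (Eprs, Iars, Lars, Mars, Qars, Rars, Kars and Dars) were all called higher, with a median log2 fold change of 1.0. Outside the complex 11 of 12 were called higher, with a median of 0.90. The 3 scaffold genes were also called higher. Eef1e1 (AIMP3) went from 51.3, 81.8, 74.1 and 77.1 to 263, 279.8, 206 and 275 and rose by 1.85 ± 0.17 (SE) (adjusted p 6.79e-08), a larger log2 fold change than that of any of the 20 cytosolic synthetases, though these differences were not tested. Aimp2 rose by 0.74 (adjusted p 0.0109; 0.0516 without IL-33 mouse 4, 0.0845 in the females alone and 0.0823 in the males alone) and Aimp1 by 0.62 (adjusted p 0.000335).

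Mitochondrial translation has its own synthetases, encoded by separate nuclear genes, and these did not move together. Of 20 such genes tested, 6 were called higher, 6 lower and 8 not called, with a median log2 fold change of 0.05. They include the glutamyl-tRNA amidotransferase subunits Gatb, Gatc and Qrsl1. Over all genes tested 29.2% were called higher and 28.5% lower, so both counts were near the shares of all genes. Yars2 (tyrosine) rose by 1.29 ± 0.13 (SE) (adjusted p 1.15e-07) and Nars2 (asparagine) by 0.70, while Gatb fell by 0.85 and Gatc by 0.84. Hars2 (histidine) was not called, with a log2 fold change of 0.08 (adjusted p 0.609). Of 17 cytosolic genes with a mitochondrial counterpart for the same amino acid, the cytosolic gene had the larger log2 fold change in 14, with Nars, Sars and Yars as the exceptions. The differences within pairs were not tested. The log2 fold change of Lars2 (leucine) rested on 1 library, and its level stood apart from the list. Its vehicle mean was 20133, where the next highest of the 20, Gatc, had 674. It had 15766, 20161, 16952 and 18172 normalized counts in the IL-33 mice and 26462, 5754, 23485 and 24832 in the vehicle mice. Mouse 6 was far below the others, and the log2 fold change was 0.04 (adjusted p 0.962) with mouse 6 and -0.50 (adjusted p 1.1e-05) without it. The ribosomal RNA gene CT010467.1, chosen after its values were seen, was also low in mouse 6, at 26319. The other vehicle mice had 149005 to 159207 and the IL-33 mice 86473 to 118808. Both genes were thus lowest in mouse 6, between in the IL-33 mice and highest in vehicle mice 5, 7 and 8. The part of ribosomal RNA in the Lars2 values was not tested, so the Lars2 values and the pair of Lars and Lars2 are uncertain.

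**Figure D4:**
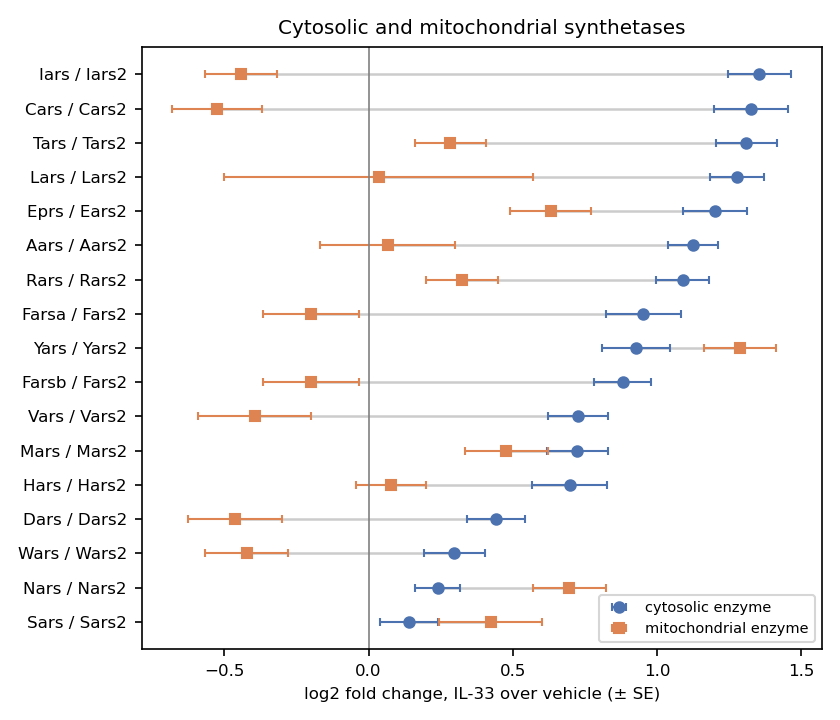
The log2 fold change (x axis, bars ± SE), IL-33 over vehicle, of each cytosolic synthetase (circles) and the mitochondrial enzyme for the same amino acid (squares), for 17 pairs sorted by the cytosolic value; Farsa and Farsb share Fars2. Circles lie to the right of squares in 14 pairs, and Lars2 has the widest bar.

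The 5 enzymes of amino acid and folate metabolism split. Asns, Mthfd2 and Shmt2 rose, and the serine synthesis genes Psat1 and Phgdh were not called. Asns, which makes asparagine, is the textbook ATF4 target. The normalized counts of Asns were 65.9, 63.5, 57.4 and 72.4 in the IL-33 mice and 3.37, 18.5, 5.49 and 7.01 in the vehicle mice. The groups did not overlap, with mouse 6 the highest of the vehicle mice. The log2 fold change was 3.01 ± 0.39 (SE) (adjusted p 3.48e-06), 3.47 without mouse 6. Mthfd2, a mitochondrial folate enzyme low in most resting adult cells, had 554, 461, 435 and 459 against 42.1, 161, 43.9 and 21 and rose by 3.21 ± 0.53 (SE) (adjusted p 0.00268). Mouse 6 lay between the IL-33 mice and the other vehicle mice. The log2 fold change was 3.72 (adjusted p 8.07e-11) without it, and 2.6 with an adjusted p of 0.0966 in the females alone. Shmt2, which passes the carbon of serine to mitochondrial folate upstream of Mthfd2, had 402, 415, 312 and 373 against 215, 144, 176 and 165 and rose by 1.10 ± 0.13 (SE) (adjusted p 1.77e-06). Its groups did not overlap, and here mouse 6 was the lowest vehicle mouse. Phgdh, the first enzyme of serine synthesis, had 381, 323, 419 and 347 against 370.2, 382, 427 and 344, and Psat1, the next, 238, 196, 198 and 224 against 196, 239, 227 and 205. Both pairs of groups overlapped, with log2 fold changes of -0.05 ± 0.11 (SE) (adjusted p 0.706) and -0.02 ± 0.13 (SE) (adjusted p 0.903).

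All 6 amino acid transporter genes rose, with a median log2 fold change of 1.54, and no groups overlapped. Slc7a11, also called xCT, brings in cystine in exchange for glutamate and so feeds glutathione synthesis. It is a known target of ATF4 and of NRF2, and its promoter holds the pair of CARE matches printed above. The normalized counts of Slc7a11 were 3074, 3510.2, 2126 and 1966 in the IL-33 mice and 95.1, 317, 89.7 and 64.1 in the vehicle mice. It showed the largest difference of the 36 genes, 18.9 times between the group means and 4.48 ± 0.40 (SE) on the log2 scale (adjusted p 0.000209). Mouse 6 stood above the other vehicle mice (64.1 to 95.1), and without it the ratio of the group means was 32.2 and the log2 fold change 4.88 (adjusted p 1.41e-16). In the females alone it was 4.23 with an adjusted p of 0.0567. Slc7a1, the cationic transporter for arginine and lysine, had 1961, 1627, 1462 and 1389 against 152, 504, 212 and 151 and rose by 2.83 ± 0.39 (SE) (adjusted p 0.00152). Mouse 6 was again highest in the vehicle group. The log2 fold change was 3.21 without it, and 2.68 with an adjusted p of 0.123 in the females alone. Slc7a5 (LAT1), which exchanges glutamine for leucine and other large neutral amino acids, had 1363, 1159.8, 1087 and 1102 against 289, 583, 399.9 and 282 and rose by 1.66 ± 0.21 (SE) (adjusted p 0.00013). Slc1a5 (ASCT2), a glutamine transporter, was low, at 76.1, 84.3, 99.8 and 64.6 against 23.6, 38.2, 40.3 and 20, and rose by 1.43 ± 0.26 (SE) (adjusted p 0.000154). Slc38a2 (SNAT2), which takes up small neutral amino acids with sodium, was high in both groups, at 3819, 3610.4, 3800.2 and 3311 against 1885, 1749, 1856 and 1492, and rose by 1.06 ± 0.08 (SE) (adjusted p 5.69e-09).

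Slc3a2 encodes the heavy chain that carries Slc7a11 or Slc7a5 to the cell surface, and it changed least of the transporters. It had 3634, 3073, 2494 and 2739 normalized counts in the IL-33 mice and 1794, 1939, 2172 and 1903 in the vehicle mice and rose by 0.60 ± 0.10 (SE) (adjusted p 6.06e-05). Exon length here joins the exons of all annotated transcripts of a gene, 13922 bases for Slc7a11, 3708 for Slc7a5 and 3529 for Slc3a2. The level of a ratio depends on these lengths, but its relative difference between the groups does not. Per kilobase of exon, the ratio of Slc7a11 to Slc3a2 was 0.214, 0.290, 0.216 and 0.182 in the IL-33 mice and 0.0134, 0.0415, 0.0105 and 0.00853 in the vehicle mice. The ratio of Slc7a5 to Slc3a2 was 0.357, 0.359, 0.415 and 0.383 against 0.154, 0.286, 0.175 and 0.141. Both light chains were below the heavy chain per kilobase in every mouse, and neither ratio overlapped between the groups.

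**Figure D5:**
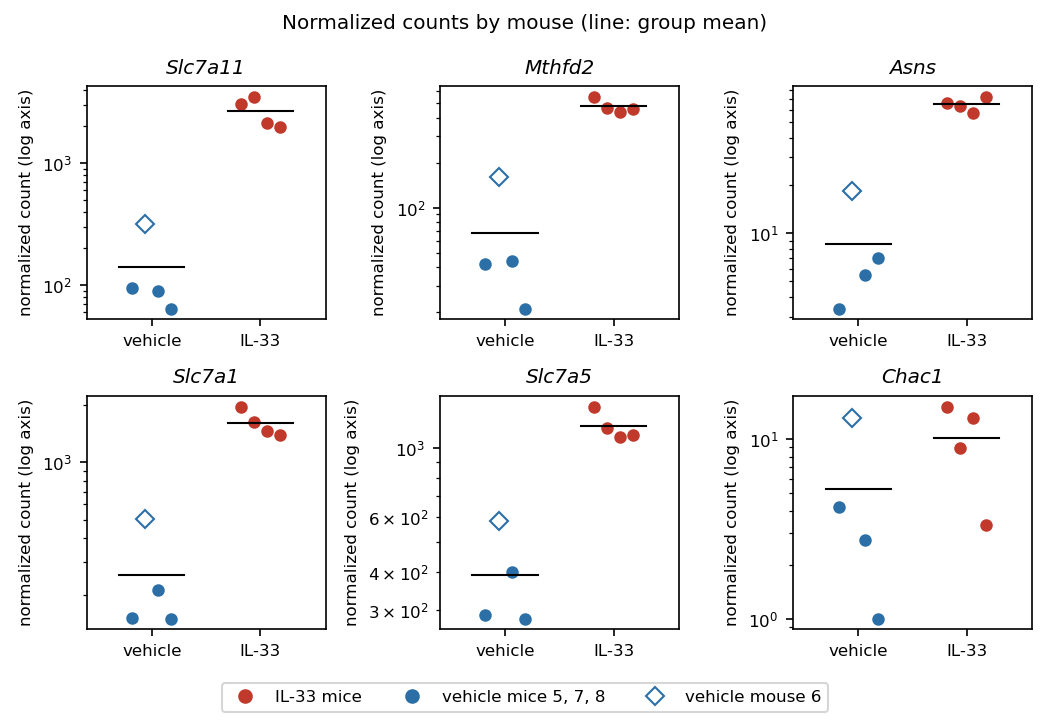
Normalized counts (log axes) of Slc7a11, Mthfd2, Asns, Slc7a1, Slc7a5 and Chac1 in each vehicle (blue) and IL-33 (red) mouse, with vehicle mouse 6 as an open diamond and lines at the group means. Mouse 6 is the highest vehicle mouse in all 6 panels and lies below every IL-33 mouse in all but Chac1.

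Per kilobase of exon, the most abundant of the 36 genes in the vehicle mice was Slc3a2, with a mean of 553 normalized counts per kilobase, followed by Nars (364), Atf4 (330), Slc38a2 (197) and Iars (193). Exon length again joins all annotated transcripts of a gene, so the order depends on the annotation. The least abundant were Trib3 (0.257), Asns (3.15), Chac1 (3.21), Slc1a5 (7.31) and Slc7a11 (10.2). Without vehicle mouse 6 Chac1 (1.62) was below Asns (1.93) and Slc7a11 (5.96) below Slc1a5 (6.70), and Trib3 was at 0. In the IL-33 mice Slc3a2 (846) and Atf4 (715) led, followed by Iars (486), Nars (429) and Slc38a2 (411), and Slc7a11 reached 192. Trib3 (1.19) and Chac1 (6.21) were the lowest of the 36, and Asns (23.7) was above Slc1a5 (19.5).

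Vehicle mouse 6, a female, was the highest of the 4 vehicle mice in 23 of the 36 genes, where mice 5, 7 and 8 were highest in 6, 4 and 3. Among the tested genes it was highest in 21 of 34 (61.8%), against 31.3% of all genes tested. Its level relative to the mean of the other 3 vehicle mice was 4.53 for Mthfd2, 3.83 for Slc7a11, 3.51 for Asns, 2.93 for Slc7a1, 1.80 for Slc7a5 and 1.54 for Cars and Iars. For Atf4 (0.851), Shmt2 (0.776) and Farsa (0.690) it was below the others. Without mouse 6, 31 genes were again called higher and none lower, with a median log2 fold change of 1.02, against 29.3% of all genes called higher. Its library was the smallest of the 8 (6989640 reads), though close to that of IL-33 mouse 4 (7053545). The part of depth or of the low ribosomal RNA gene in the values of mouse 6 was not tested.

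The sexes were compared within the same data. None of the 34 genes was called for the sex difference (0.0596% of all genes were), none had an unadjusted p under 0.05, and edgeR and DESeq2 called none. None was called for an IL-33 effect that differed by sex (0.00662% of all genes were, limma), again none by edgeR or DESeq2, and 2 had an unadjusted p under 0.05. Slc3a2 had a log2 fold change of 0.84 in the females alone and 0.36 in the males alone, a difference of 0.48 ± 0.15 (SE; unadjusted p 0.00669, adjusted p 0.366, limma). Ddit3 had 0.21 in females and 0.89 in males, a difference of -0.68 ± 0.28 (unadjusted p 0.025, adjusted p 0.51). With 2 mice per sex and group, the lack of calls for that difference rested on 1 mouse. Without vehicle mouse 5, mouse 6 alone stood for the vehicle females. The differences of Iars, Mthfd2, Slc7a1 and Slc7a11, chosen after their values were seen, were then -0.57, -2.19, -1.16 and -1.37. With all mice they were -0.27, -1.23, -0.30 and -0.50. A fit with 1 vehicle female cannot tell sex from that mouse. Fitted alone, the females had 24 genes called higher and the males 29, with none lower in either. Over all 15110 genes tested, 3221 were called higher and 3115 lower in the females alone. In the males alone these counts were 3761 and 3781, so fewer calls in the females were seen over the whole table as well.

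The list of genes around eIF2α, which bears on the translation of Atf4, holds its kinases and a regulator of GCN2, its phosphatase subunits, the factor itself and the subunits of eIF2B, the exchange factor that phosphorylated eIF2α inhibits. Of 13 tested, 9 were called higher and 2 lower, with a median log2 fold change of 0.55, and none of the 4 kinases was called higher. The counts of this list and of those below stand beside 29.2% of all genes tested called higher and 28.5% lower. Ppp1r15a (GADD34), the stress-induced phosphatase subunit that removes the phosphate from eIF2α, went from 55.5, 24.0, 44.8 and 42.0 to 307, 251, 168 and 161, and rose by 2.39 ± 0.26 (SE) (adjusted p 1.16e-06). Its constitutive relative Ppp1r15b rose by 1.18 and Eif2s1, eIF2α itself, by 1.47. Eif2ak3 (PERK), the kinase of the endoplasmic reticulum, fell by 1.13 on the log2 scale (adjusted p 2.19e-06). The kinases Eif2ak2 (PKR) and Eif2ak1 (HRI) were not called, at -0.18 (adjusted p 0.295) and -0.09 (0.457). Eif2ak4 (GCN2), the kinase activated when amino acids run short, fell by 0.34 (adjusted p 0.012), a call lost without IL-33 mouse 4 (adjusted p 0.0678) or vehicle mouse 8 (0.0523). Of the 9 genes called higher, 5 were the eIF2B subunits Eif2b1 to Eif2b5, with log2 fold changes of 0.48 to 0.80. The call of Eif2b2 (adjusted p 0.0451) was lost without IL-33 mouse 1, 2 or 3 or vehicle mouse 5, 7 or 8 (adjusted p 0.056 to 0.175). Eif2ak4 and these subunits were chosen after their values were seen. The count of genes called lower fell to 1 without IL-33 mouse 4 or vehicle mouse 8.

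Among 8 factors that pair or compete with ATF4, 6 were called higher and 2 lower. Cebpb rose by 2.59 ± 0.31 (SE) (adjusted p 2.8e-06), Jdp2 by 2.01 and Cebpd by 1.92, while Cebpa, a lineage factor of myeloid cells, fell by 2.23 on the log2 scale (adjusted p 1.64e-06). Other known ATF4 targets were mixed: 8 of 16 tested (24 listed) were called higher, 4 lower and 4 not, with a median of 0.51. Herpud1, an endoplasmic reticulum degradation factor, rose by 3.15, from 501 ± 68.0 to 4483 ± 915, and Nupr1, a stress cofactor, by 1.87. Aldh18a1, the first enzyme of proline synthesis, rose by 1.70. The 4 called lower, named after their values were seen, were Pycr1 (-1.38), Cebpg (-1.34), Bcat1 (-1.04) and Map1lc3b (-0.88). Cebpg, also the other factor called lower above, went from 1868 ± 195.5 to 736 ± 31.3. Pycr1 and Bcat1 were low, with vehicle means of 28.4 and 16.1, and Bcat1 was not called without vehicle mouse 6 (adjusted p 0.06). Xpot, which exports tRNA from the nucleus, was not called at 0.06 (adjusted p 0.508). Ddit4, an mTORC1 inhibitor, ranged from 69.8 to 651 in the vehicle mice and was not called at -1.79 (adjusted p 0.119), but was called without vehicle mouse 5 (-2.47, adjusted p 0.0153) and by DESeq2 (-2.18, adjusted p 0.00756).

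Neighbouring pathways of amino acid metabolism did not rise as a whole. Of 13 tested genes of serine and folate metabolism (15 listed), 5 were called higher, 3 lower and 5 not, with a median log2 fold change of 0.05. Mat2a, which makes the methyl donor S-adenosylmethionine, rose by 1.48, from 1603 ± 239 to 4439 ± 144, and Ahcy, which clears the product of methylation, by 1.70. Mtr, methionine synthase, fell by 1.02 on the log2 scale. The count of genes called lower was 1 without IL-33 mouse 2, IL-33 mouse 4 or vehicle mouse 8. Tyms and Mthfd2l were not called, at 0.08 (adjusted p 0.679) and -0.33 (0.148). Of 17 other amino acid transporters tested (24 listed), 6 were called higher and 8 lower, with a median of -0.14. Slc1a4 (ASCT1) rose by 1.71 and Slc7a7, a cationic amino acid exporter that also pairs with Slc3a2, by 1.14, while the lysosomal exporter Slc36a1 fell by 1.65 and Slc43a2 (LAT4) by 1.46. Slc38a7 (-0.03, adjusted p 0.85) and Slc1a2 (0.03, adjusted p 0.845) were not called.

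Genes of amino acid sensing upstream of mTORC1 were mixed: 5 of 22 tested (23 listed) were called higher, 10 lower and 7 not, with a median of -0.28. The count of genes called higher was 3 without IL-33 mouse 1 or vehicle mouse 5. The sestrins Sesn1 and Sesn3 fell by 2.29 and 1.48 on the log2 scale, from 1439 ± 134 to 295 ± 51.8 and from 183 ± 12.8 to 65.5 ± 13.1, opposite in direction to Sesn2. Flcn (folliculin) fell by 1.45 and Lamtor1, a lysosomal anchor of the Rag GTPases, by 1.08. Depdc5 (-0.06, adjusted p 0.585) and Lamtor5 (0.25, adjusted p 0.165) were not called. Of 16 genes of the unfolded protein response, 7 were called higher, 5 lower and 4 not, with a median of 0.19. Hspa5 (BiP) rose by 0.99 and Atf6 by 0.86, Sdf2l1 fell by 1.17, and Dnajc3 (-0.14, adjusted p 0.191) and Ern1 (0.08, adjusted p 0.446) were not called. There are 7 genes that stand in more than 1 of these lists.

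Several of the 36 genes share letters or exons with others, which the counting could split or lose. Of all 50-base stretches of Phgdh transcripts, 47.8% also occur in other genes, chiefly processed pseudogenes, of which Gm7901 had 4.71 to 13.7 normalized counts, so the Phgdh values are uncertain. The share was 13.8% for Aars, 7.27% for Farsb, 7.15% for Iars (pseudogene Gm4849) and 5.95% for Hars. Exons of Aars overlap those of Exosc6 by 1326 bases on the same strand, and Exosc6 is listed at 0. Mars and Ddit3 lie on opposite strands of chromosome 10 and overlap. The sources used here do not give the strand setting of the counting, so reads in the stretch shared by Mars and Ddit3 cannot be told apart. Exons of Ddit3 also overlap those of a second gene entry of the same name by 105 bases on the same strand.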

How the data were processed

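Amplified cDNA (Nugen Ovation RNA-Seq System V2, per the labels) of sorted cortical microglia was sequenced in 8 mice. Reads were handled with STAR 2.6.0, HTSeq 0.9.0, DESeq2 1.24.0 and FastQC on mm10/GRCm38, per the submitters' processing notes, which give no order or role. The deposited expression signal is a gene count divided by 1 size factor per library, made by the authors. In each library every value was a whole multiple of 1 step (tolerance 0.001), so whole reads were recovered (100% of values). The authors' deposited table of changed genes gives a log2 fold change with its standard error, a test score (the Wald statistic) and a p-value with its adjusted p-value, cut by the authors at a highest adjusted p of 0.00996. It was used only where named. No column was left unmapped (0 unmapped, 8 mapped).

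A gene was tested if its normalized count reached 10 in 4 or more libraries, with limma 3.58.1 (R 4.3.3; trend and robust) on log2(normalized count + 1) with terms for treatment and sex, two-sided, with Benjamini-Hochberg adjustment over the 15110 genes tested. Fold changes are on that scale, which understates the change of low genes. A gene was called at an adjusted p under 0.05. Differences of the IL-33 effect by sex used an interaction term. The 2 genes under the filter were tested with an exact permutation test over mice, with exact intervals on pooled reads. edgeR 4.0.16 and DESeq2 1.42.0 were run on the recovered reads as alternatives, beside other pseudocounts (0.5 and 5), filters, scalings, leaving out each mouse and each sex alone. The fits were tested on simulated data. Lengths, overlaps and shared 50-base stretches came from GENCODE M21, where 53706 of 53801 gene identifiers were found, and promoters from RefSeq. The exon length of a gene was the union of the exons of all its annotated transcripts. All 36 genes are described. Of each other list the text names up to 4 called genes with the largest change and the 2 uncalled genes with the highest mean. A called gene of the serine and folate list and a marker gene are not reported here by name, and stay in their lists' counts and sums. The 36 genes, the lists and the tests were chosen with earlier results of these data known. List genes without an identifier in the table (2) were left out.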

Additional observations from a re-analysis of the deposited data

Results flagged for a closer look

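Of 72 groups of 4 mice, 6 held a value far from the other 3 by the 95% critical value of Dixon's gap ratio, 4 of them in vehicle mouse 6. Chance alone marks about 1 in 20 groups. In vehicle mouse 6, Iars had 1384 normalized counts (the other vehicle mice 872 to 914), Mthfd2 161 (21 to 43.9), Slc7a11 317 (64.1 to 95.1) and Trib3 2.18 (0 in the others, so the value rests on 2 reads). In vehicle mouse 5, Wars had 267 (249 to 252 in the others). In vehicle mouse 7, Sesn2 had 54.9 (77.4 to 81.8 in the others). Each of these vehicle values lay below every IL-33 mouse except that of Trib3. None of the IL-33 groups was marked, and the cause of the values in mouse 6 was not tested.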

How the results depend on the processing

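Over 20 alternatives, 27 of the 34 tested genes kept their side of the threshold in all, 7 lost the call in some (Nars in 6, Wars in 7, and Qars, Mthfd2, Ddit3, Slc7a1 and Slc7a11 in the females alone), and none of the called genes changed direction. Psat1 and Phgdh, never called, ranged across 0 (-0.08 to 0.03 and -0.12 to 0.0034). The number called higher was 30 to 31 when 1 mouse was left out, 24 in the females and 29 in the males alone, and 29 to 31 otherwise, with none lower throughout. Genes called over the whole table numbered 8064 to 8712 when 1 mouse was left out, against 8716, 6336 to 7542 in 1 sex and 7062 to 9385 otherwise. The number of the 34 called for an effect that differed by sex was 0 to 4 when 1 mouse was left out, 4 without vehicle mouse 5, when 371 genes were called over the whole table against 1 (29 with no filter, 30 by DESeq2). The cause was not tested.

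Log2 fold changes that changed sign by more than 1 SE or with a call were those of Lars2, from 0.04 to -0.50 without vehicle mouse 6 (range when 1 mouse was left out, -0.50 to 0.38) and -0.46 in the males alone, Eif2ak1 (0.050) and Slc38a7 (0.19) in the females alone, Eif2ak2 (0.15) and Dnajc3 (0.030) in the males alone, and Xpot (-0.018) with quantile normalization. Lars2 was called in the former 2 cases, Eif2ak2 was called in the females alone (-0.51), and the cause was not tested. In the shorter lists, the mitochondrial genes called higher were 2 in the females alone and those called lower 3 in the males alone (6 in each direction with all mice). The eIF2α genes called lower numbered 1 against 2 without trend and robust fitting, without IL-33 mouse 4, without vehicle mouse 8 and in the males. The other ATF4 targets called lower numbered 2 against 4 with a filter of 50. The serine and folate genes called lower numbered 1 against 3 with a filter of 50, with quantile normalization, without IL-33 mouse 2, IL-33 mouse 4 or vehicle mouse 8, and in the males. The sensing genes called higher numbered 3 against 5 with quantile normalization, without trend and robust fitting, without IL-33 mouse 1 or vehicle mouse 5, and in the males. The unfolded protein response genes called lower numbered 3 against 5 in the females. No paired analysis was possible because the groups share no replicate numbers. Depth limits Chac1 and Trib3, where a few reads per library leave wide intervals.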
